A study of Mus musculus with 4 samples.

Results

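The genes described here encode the nuclear pore complex, the receptors and small GTPase cycle that carry cargo through it, the mRNA export machinery, and the lamina and membrane proteins of the nuclear envelope. They were selected by symbol, from a fixed pattern of family names (nucleoporins, importins, exportins, Ran and its partners, THO and NXF proteins, lamins, SUN proteins and nesprins), and 53 of the 4878 genes in the table matched. The members and lists were chosen with earlier results of these data known. The cells were mouse embryonic fibroblasts (MEFs), primary cells grown out of embryos, used at passages 5 to 8. 2 libraries came from cells transfected with a negative control siRNA (Si-Negative control) and 2 from cells transfected with siRNA against eIF1A, labelled Si-eIF1A (X+18), all with the reagent Lipofectamine RNAimax. eIF1A acts in translation initiation, where it promotes scanning of the mRNA by the small ribosomal subunit and recognition of the start codon. RNA was measured by bulk MARS-seq, which counts reads at the 3′ ends of polyadenylated mRNA, and the design asks how transcript levels change on eIF1A depletion. The labels do not give the strain, the embryonic age, the time after transfection or whether replicate libraries come from separately grown cells. The p-values weigh the difference between groups against the spread of these samples within a group, estimated with information shared over genes. That spread may be technical.

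Traffic between nucleus and cytoplasm runs through nuclear pores, large rings of nucleoporins set in the double membrane. Importins and exportins bind cargo and pass through the pore, and the direction is set by Ran, which carries GTP in the nucleus, where its exchange factor Rcc1 sits on chromatin, and GDP in the cytoplasm, where Rangap1 and Ranbp1 promote hydrolysis. Mature mRNA leaves by a separate route, in which the TREX complex loads the receptor Nxf1-Nxt1. Beneath the inner membrane the lamins form a meshwork that, with emerin, the lamin B receptor and the SUN-nesprin bridges to the cytoskeleton, gives the nucleus its shape and stiffness, and A-type lamins are abundant in stiff mesenchymal tissue and in fibroblasts.

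Recovered reads came to 2152331 to 2595625 per library over the genes analysed, and the median gene had 120 to 173 reads. Control libraries had normalised totals of 2148300 and 2106580, against 1737440 and 1597710 for the knockdowns, so the choice of scaling bears on every direction below. The targeted genes, Eif1a and Eif1ax, are not analysed here, so how far eIF1A mRNA fell was not checked. Of 12 fibroblast markers 3 were in the table (Vim, Fn1 and S100a4), with summed values of 23010 and 17548 in controls and 9879 and 12562 in knockdowns, of 5 neural markers 2 (Nes and Map2), and of the 5 endothelial, 5 epithelial, 7 macrophage and 4 muscle symbols none. The fibroblast collagens and Pdgfra were not analysed here, so the labelled cell type rests on few markers. Vim, the mesenchymal intermediate filament, had 20136 and 15531 normalised counts in controls and 8437 and 10504 in knockdowns. The summed neural markers had 238 and 245 in controls and 132 and 151 in knockdowns. Fn1, fibronectin, had 2194 and 1328 in controls and 1338 and 1957 in knockdowns, with overlapping groups, whereas S100a4, a calcium-binding protein, had 680 and 689 against 104 and 100.5. Vim, S100a4 and the neural sum thus moved with the groups and Fn1 did not, and their part in the results below was not tested. In bulk RNA, fewer cells of a type and less RNA per cell cannot be told apart.

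The promoters of 4 members are shown, a pair with rises that held under every alternative (Rae1 and Rcc1) and a pair of inner nuclear membrane proteins that moved in opposite directions (Lbr, higher, and Emd, lower). Each is the 250 bases before the most upstream start that RefSeq lists (GRCm38.p6, the mm10 assembly), read 5′ to 3′ on the gene's strand, with capitals marking CCAAT boxes. GENCODE M21 extends Rcc1 and Lbr further upstream, to 132353605 and 181843046, so the windows of these genes lie inside them by that annotation.
Rae1, chr2:172999867-173000116, plus strand: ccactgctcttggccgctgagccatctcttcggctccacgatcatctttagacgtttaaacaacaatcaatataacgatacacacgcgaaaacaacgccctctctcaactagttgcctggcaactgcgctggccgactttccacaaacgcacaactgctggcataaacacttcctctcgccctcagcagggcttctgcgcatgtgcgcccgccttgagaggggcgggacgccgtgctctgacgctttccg
Rcc1, chr4:132345751-132346000, minus strand: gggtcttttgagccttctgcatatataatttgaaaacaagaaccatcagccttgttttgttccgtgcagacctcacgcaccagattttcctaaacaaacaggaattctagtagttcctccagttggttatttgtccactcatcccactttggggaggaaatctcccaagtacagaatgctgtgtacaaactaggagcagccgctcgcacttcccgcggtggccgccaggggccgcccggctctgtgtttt
Lbr, chr1:181842402-181842651, minus strand: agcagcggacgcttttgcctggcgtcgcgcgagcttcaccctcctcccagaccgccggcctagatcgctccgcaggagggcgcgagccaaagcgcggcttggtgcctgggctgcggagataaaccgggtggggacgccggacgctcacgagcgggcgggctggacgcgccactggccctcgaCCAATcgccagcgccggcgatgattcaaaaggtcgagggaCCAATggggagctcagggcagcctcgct
Emd, chrX:74254437-74254686, plus strand: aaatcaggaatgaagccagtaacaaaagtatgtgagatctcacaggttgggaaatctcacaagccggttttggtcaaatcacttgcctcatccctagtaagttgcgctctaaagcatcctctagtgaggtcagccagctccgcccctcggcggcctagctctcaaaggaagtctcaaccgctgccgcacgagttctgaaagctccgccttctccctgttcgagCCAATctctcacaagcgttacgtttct

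5 motifs were searched on both strands of these windows: the E-box (CACGTG), the CRE (TGACGTCA), the CCAAT box (CCAAT), the core of the C/EBP-ATF response element (TGATGNAAT) and the ETS core (CCGGAAG). No motif contains another, and none overlapped in the printed windows. RefSeq's table had an entry for 42 of the 53 genes, the 15 called ones among them. CCAAT was found in 18 of these 42 promoters, among them those of 4 of the 10 members that rose (Ipo5, Lbr, Nup98 and Ranbp1) and 2 of the 5 that fell (Emd and Sun2), and it is in 34.5% of 27025 RefSeq promoters of this length and 37.5% of the 3831 that belong to genes of the table. The E-box, CRE and response-element core were found in none of the 15, against 6.04%, 1.60% and 0.825% of all promoters and 9.87%, 2.77% and 0.418% of those of the table's genes. Of all 42 member promoters 4 held the E-box. Among the 15 the ETS core occurred only in Aaas, with 7 of the 42 member promoters, 7.07% of all promoters and 16.8% of those of the table's genes holding it. A CCAAT box thus stood in the windows of members of both directions, and the windows of Rae1 and Rcc1 held none of the 5 motifs. By GENCODE M21 the windows of Rcc1, Lbr, Lmna and Ndc1 lie inside those genes, so sequence before the earlier starts was not searched. A match is a string of letters and not a measured binding site.

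After eIF1A knockdown, genes of the pore, the Ran cycle and the transport receptors were higher where they passed the test, with Aaas as the exception, and of the 9 members of the nuclear envelope 4 fell and Lbr rose. Of the 53 genes, 52 reached the mean of 5 normalised counts required for testing, and Kpna1 did not. With limma and Benjamini-Hochberg adjustment over all 4605 genes tested, 10 rose, 5 fell and 37 did not pass an adjusted p of 0.05. Among all genes tested 15.9% were called higher and 21.6% lower. The 10 rises among 52 are 19.2%, near that background, and the 5 falls are 9.62%, below it. The median log2 fold change was 0.22 for the 52 genes and −0.01 for all genes. Each fold change compares knockdown with control after log2(normalised count + 1), and ± gives the SD over the libraries of a group (n = 2). The libraries of the groups overlapped in 13 of the 52. The knockdown pair lay above both controls in 23 and below both in 16, against 32.4% and 35.5% of all genes in those directions. At an unadjusted p under 0.05 the limma counts were 12 higher and 5 lower, against 20.3% and 25.6% of all genes. On the recovered reads edgeR called 10 higher and 5 lower, against 15.9% and 21.7% of all genes, and DESeq2 7 and 5, against 12.6% and 19.7%. DESeq2 did not call Ndc1, Nup160 and Lbr. Counts of calls moved with single libraries: 6 rose without knockdown replicate 1 and 4 without knockdown replicate 2, and 3, 3 and 2 fell without control replicate 2, knockdown replicate 1 and knockdown replicate 2. The median of the 52 was 0.0062 without control replicate 2.

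**Figure D1:**
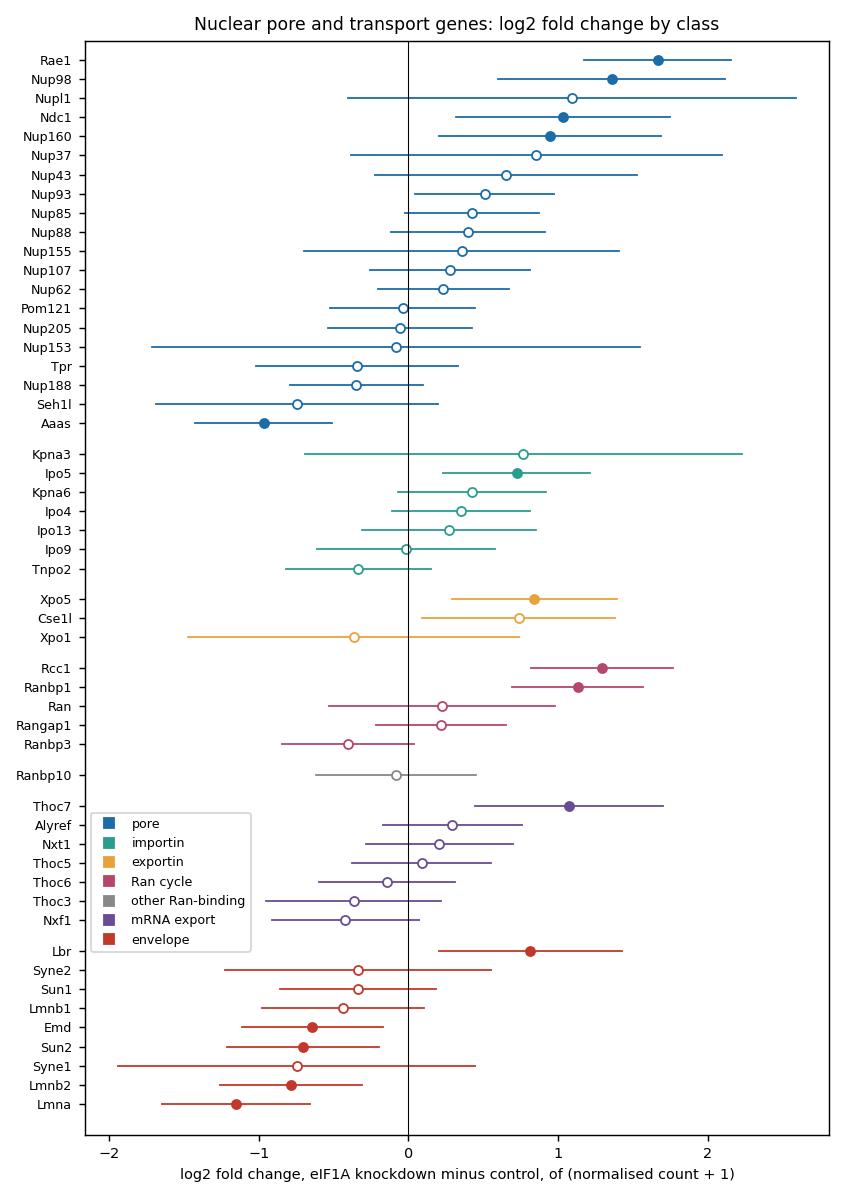
Log2 fold change (knockdown minus control, x axis) of the 52 tested genes with its 95% interval from limma (lines), grouped and coloured by class; filled points passed an adjusted p of 0.05. In the envelope class 8 of 9 points lie below 0, and in the pore class 13 of 20 lie above it.

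In the nuclear pore class 4 of 20 genes rose (Rae1, Nup98, Ndc1 and Nup160), 1 fell (Aaas) and 15 did not pass, with a median of 0.38. Rae1, a WD-repeat protein that binds Nup98 and takes part in mRNA export, had 107 and 130 normalised counts in controls and 380 and 373 in knockdowns. The knockdown libraries lay close together and far above both controls. The log2 fold change was 1.67 (SE 0.23), or 3.17-fold, with an adjusted p of 2.03e-05. Nup98, a channel nucleoporin with phenylalanine-glycine repeats and the binding partner of Rae1, had 30.5 and 23.5 in controls and 54.1 and 91.0 in knockdowns. Both knockdowns were above both controls but differed from each other by more than the controls did. It rose 2.56-fold (log2 1.36, SE 0.36, adjusted p = 0.0063), and without knockdown replicate 2 the call was lost (0.99, adjusted p = 0.163).

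Ndc1, a transmembrane nucleoporin that anchors the pore in the membrane, went from 40.3 ± 16.8 to 80.0 ± 1.22 (2.05-fold, adjusted p = 0.0232). Its controls were unequal, at 52.2 and 28.4, whereas the knockdowns had 79.1 and 80.8. Nup160, a subunit of the outer ring of the pore, had 28.5 and 29.2 in controls and 47.6 and 67.2 in knockdowns (1.93-fold, adjusted p = 0.0423). Here the controls were nearly equal and the knockdowns were spread. Both calls were lost when single libraries were left out. Ndc1 had adjusted p = 0.187, 0.081 and 0.0943 without control replicate 2, knockdown replicate 1 and knockdown replicate 2, and Nup160 had 0.0726, 0.0543, 0.0656 and 0.354 without control replicates 1 and 2 and knockdown replicates 1 and 2. The log2 fold changes in those fits were 0.61, 1.05 and 1.02 for Ndc1 and 0.93, 0.96, 1.19 and 0.70 for Nup160. Without control replicate 1 that of Ndc1 was 1.46, so its estimate moved with either control. With the trend on transcript GC content removed they were 0.64 and 0.54 on the log2 scale and did not pass (adjusted p = 0.184 and 0.247).

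Aaas, which encodes ALADIN, a pore protein tethered by Ndc1 and mutated in triple A syndrome, was the only pore gene called lower. It had 1022 and 830 normalised counts in controls and 420 and 528 in knockdowns, with no overlap. The log2 fold change was −0.97 (SE 0.22, adjusted p = 0.00186), and the call was kept under all 17 other settings. Within libraries, log2 Rae1 minus log2 Aaas was −3.24 and −2.67 in controls and −0.14 and −0.50 in knockdowns. A scaling factor per library largely cancels in this difference. The mRNAs of these cytoplasmic-face genes thus changed unequally, and Nup88, the other gene of that face, did not pass (0.40).

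The rest of the pore, 15 genes, did not pass. By subcomplex, the 6 outer ring genes had a median of 0.54 with 1 call (Nup160), the 4 inner ring genes 0.15 with 0 calls (1 at an unadjusted limma p under 0.05, and 0 with edgeR and DESeq2), and the 3 channel genes 1.09 with 1 call (Nup98). The 2 genes of the nuclear basket, Tpr and Nup153, had −0.34 and −0.08. Nup93, an inner ring scaffold protein, had 239 and 222 in controls and 330 and 325 in knockdowns, and missed the threshold at a log2 fold change of 0.51 (95% interval 0.04 to 0.97, adjusted p = 0.0795). It passed with TMM scaling (0.57, adjusted p = 0.0463), with library totals made equal (0.86, 0.00266) and under quantile normalisation (0.73, 0.0144). At equal totals Nup62, Nup85 and Nup88 passed too (0.58, 0.78 and 0.75), and under quantile normalisation Nup62 and Nup85 (0.58 and 0.72). Nup62 also passed with the trend on transcript GC content removed (0.73, adjusted p = 0.0112). Nup188, the pore gene of highest mean count, had 910 and 740 in controls and 607 and 685 in knockdowns (−0.35, interval −0.79 to 0.10, adjusted p = 0.218), with a sign that turned at equal totals (0.0048) and under quantile normalisation (0.0171). For Nup205, Pom121 and Nup62, whose values overlapped or nearly did, the intervals were −0.54 to 0.43, −0.52 to 0.44 and −0.21 to 0.67, so differences of about the size seen for Rae1 lie outside them. Seh1l, an outer ring subunit, had 22.6 and 31.7 in controls and 13.7 and 17.7 in knockdowns (−0.75, adjusted p = 0.21), and was called lower only with the GC trend removed (−1.24, adjusted p = 0.039). Depth limited the low genes. Nup153 had 4 reads in its shallowest library, Nup37 had 7, and Nupl1, a channel nucleoporin with 3 reads in control 1, had a knockdown to control ratio of summed reads of 2.49 (95% exact Clopper-Pearson counting interval 1.23 to 5.46), an interval that covers counting error only.

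In the Ran cycle 2 of 5 genes rose and the median was 0.22, or 0.52 without control replicate 1 and 0.37 without knockdown replicate 1. In this class and among importins, exportins and mRNA export genes 0 fell, and the count lower was also 0 at an unadjusted limma p under 0.05 and with edgeR and DESeq2. Of all genes tested 21.6%, 25.6%, 21.7% and 19.7% were lower by these criteria in turn, and 15.9% were called higher by limma. Each class has only 3 to 7 tested genes, so a count of 0 says little about any of them. Rcc1, the exchange factor that loads Ran with GTP on chromatin, had 147 and 152 normalised counts in controls and 367 and 367 in knockdowns. Within each group its replicates were nearly equal. It rose 2.45-fold (log2 1.29, SE 0.23, adjusted p = 1.90e-04). Ranbp1, the cytoplasmic partner that releases RanGTP from transport receptors for hydrolysis, had 398 and 428 in controls and 898 and 910 in knockdowns. It rose 2.19-fold (log2 1.13, SE 0.21, adjusted p = 3.19e-04). Both calls were kept under all 17 other settings. Ranbp1 has a small predicted gene on its own strand within its last 1000 bases, so its count is uncertain to that extent.

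Ran itself had 47.2 and 30.8 in controls and 40.4 and 49.6 in knockdowns, with overlapping groups (log2 0.22, interval −0.53 to 0.98, adjusted p = 0.668). Rangap1, the GTPase activator, had 1281 and 1331 in controls and 1493 and 1547 in knockdowns (0.22, interval −0.21 to 0.65, adjusted p = 0.439). It passed when library totals were set equal (0.57, adjusted p = 0.0249), under quantile normalisation (0.59, 0.0288) and with the GC trend removed (0.55, 0.0424). Ranbp3, a cofactor of Xpo1-dependent export, had 1095 and 1136 in controls and 918 and 774 in knockdowns (−0.40, interval −0.84 to 0.03, adjusted p = 0.14), a sign that turned under quantile normalisation (0.0039). Measured within each library, log2 Rcc1 minus log2 Rangap1 was −3.12 and −3.12 in controls and −2.02 and −2.07 in knockdowns, so the exchange factor mRNA changed more than that of the activator. Ranbp10, a protein named for Ran binding and not placed in the cycle here, had 166 and 170 in controls and 132 and 192 in knockdowns.

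**Figure D2:**
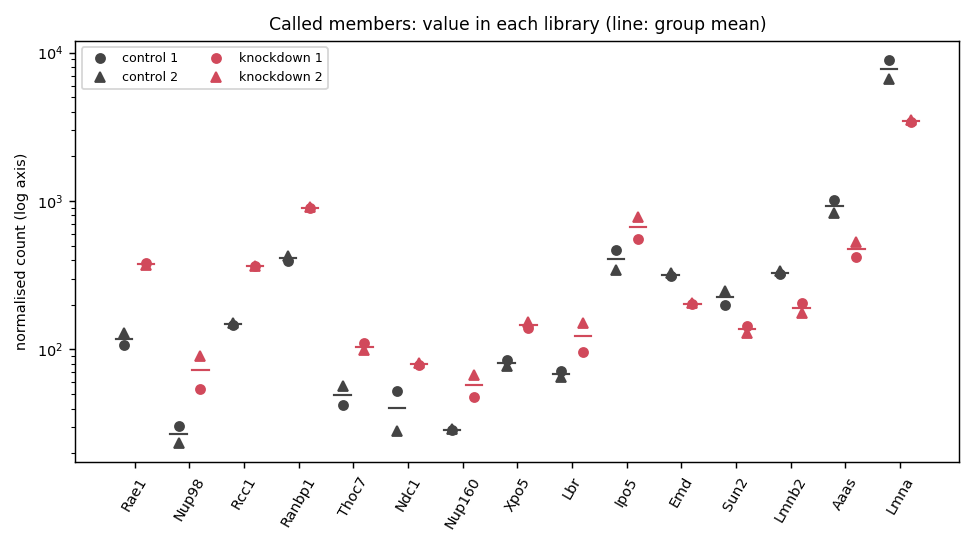
Normalised counts (log axis) of the 15 called genes, with 1 marker per library and dashes for the group means, ordered by fold change. Rae1, Rcc1 and Ranbp1 have tight pairs that lie far apart between groups, and Lmna goes from a mean of 7768 to 3453.

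Among importins 1 of 7 tested genes rose, with a median of 0.35 that was 0.19 without knockdown replicate 2. Ipo5, a receptor for ribosomal proteins and histones, had 467 and 342 in controls and 559 and 783 in knockdowns (1.65-fold, log2 0.72, SE 0.23, adjusted p = 0.0209). The groups did not overlap, but the gap between them was smaller than either pair's own spread. The call was lost without control replicate 2 (adjusted p = 0.113), without knockdown replicate 2 (0.263) and with the GC trend removed (0.33 on the log2 scale, 0.294). Ipo4, which carries histones and ribosomal proteins and had the highest mean of the class, had 681 and 593 in controls and 697 and 941 in knockdowns and did not pass (0.35, interval −0.11 to 0.81, adjusted p = 0.23). It passed at equal totals (0.70), under quantile normalisation (0.71) and with the GC trend removed (0.75, adjusted p = 0.0207). Ipo13, which carries cargo in both directions, had unequal controls of 368 and 180 and did not pass. It passed without control replicate 1 (0.78, adjusted p = 0.0164) and at equal totals (0.62, 0.0411), and without control replicate 2 its sign turned (−0.24). Tnpo2, a transportin for RNA-binding proteins, had 229 and 244 in controls and 184 and 191 in knockdowns (−0.34, adjusted p = 0.275). Its sign turned positive at equal totals (0.0159). The adaptor family, importin alpha, was thinly covered: Kpna6 had 156 and 183 in controls and 217 and 236 in knockdowns (0.42, adjusted p = 0.171), and Kpna1 and Kpna3 had as few as 3 and 4 reads in a library.

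Of the 3 exportins, Xpo5 rose and Cse1l and Xpo1 did not pass. Xpo5, which carries microRNA precursors out of the nucleus, had 84.6 and 77.9 in controls and 140 and 152 in knockdowns. Its pairs were even and well separated. It rose 1.79-fold (log2 0.84, SE 0.26, adjusted p = 0.0169), and was lost without knockdown replicate 1 (0.90, adjusted p = 0.0681) or 2 (0.78, 0.13), with a log2 fold change of similar size. Cse1l, which returns importin alpha to the cytoplasm, had 43.3 and 55.2 in controls and 77.5 and 86.9 in knockdowns (0.74, interval 0.09 to 1.38, adjusted p = 0.0669). It passed without control replicate 2 (0.91, adjusted p = 0.0401), at equal totals (1.08) and with TMM scaling (0.80, adjusted p = 0.0472). Xpo1, the general exportin for leucine-rich export signals, had 13.8 and 15.4 in controls and 11.3 and 10.9 in knockdowns, and did not pass (interval −1.47 to 0.74). Within libraries, log2 Xpo5 minus log2 Xpo1 was 2.53 and 2.26 in controls and 3.52 and 3.69 in knockdowns, with no overlap.

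In the mRNA export class Thoc7 rose and 6 of 7 did not pass, with a median of 0.09. That median has no firm sign, being −0.0334, −0.0208 and 0.0105 without control replicate 2, knockdown replicate 1 and knockdown replicate 2. Thoc7, a THO subunit of TREX, had 42.3 and 56.8 in controls and 111 and 98.5 in knockdowns (2.11-fold, log2 1.07, SE 0.30, adjusted p = 0.00827). Of the tested members it had the lowest transcript GC content, 37.2%, and with the GC trend removed its log2 fold change was 0.48 (adjusted p = 0.229). It lost the call without knockdown replicate 1 (adjusted p = 0.0769), and a predicted gene lies on the opposite strand at its 3′ end. The other THO subunits did not pass. Thoc5 had 360 and 304 in controls and 329 and 377 in knockdowns (0.09, interval −0.37 to 0.55), Thoc6 had 513 and 485 in controls and 502 and 406 in knockdowns (−0.14, interval −0.60 to 0.31, and positive at equal totals, under quantile normalisation and with the GC trend removed), and Thoc3 had −0.37 with an adjusted p of 0.332. The adaptor Alyref, which links TREX to the export receptor, had 344 and 461 in controls and 488 and 489 in knockdowns (0.29, adjusted p = 0.324). The receptor Nxf1 had 366 and 280 in controls and 217 and 263 in knockdowns (−0.42, interval −0.91 to 0.07, adjusted p = 0.17), and its partner Nxt1 had 344 and 279 against 419 and 306 (0.21, adjusted p = 0.525).

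In the nuclear envelope class 4 of 9 genes fell (Lmna, Lmnb2, Sun2 and Emd), 1 rose (Lbr) and 4 did not pass, with a median of −0.64 that was −0.29 at equal library totals, where all genes had a median of 0.34. The falls are 44.4% and the rise 11.1%, against 21.6% and 15.9% of all genes tested. The 2 groups of libraries did not overlap in any of the 9, and the knockdown pair was lower in 8. Without overlap, 35.5% of all genes tested were lower and 32.4% higher, so separation of 2 libraries from 2 is common here. Lmna, which encodes lamins A and C, had 8941 and 6595 normalised counts in controls and 3411 and 3496 in knockdowns. Both knockdowns lay well below both controls, and the controls were further apart than the knockdowns. It fell 2.22-fold (log2 −1.15, SE 0.24, adjusted p = 8.37e-04), and the call was kept in every setting but quantile normalisation (−0.53, adjusted p = 0.0657). Vim and S100a4 were also lower in both knockdown libraries, while Fn1 overlapped between the groups, as given above.

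Of the B-type lamins, which stay attached to the membrane, Lmnb2 fell and Lmnb1 did not pass. Lmnb2 had 321 and 338 in controls and 204 and 177 in knockdowns (1.73-fold lower, log2 −0.79, SE 0.23, adjusted p = 0.0103). Lmnb1 had 153 and 136 in controls and 116 and 97.1 in knockdowns and did not pass (−0.44, interval −0.98 to 0.10, adjusted p = 0.2). Within libraries, log2 Lmna minus log2 Lmnb1 was 5.86 and 5.59 in controls and 4.86 and 5.16 in knockdowns, whereas log2 Lmna minus log2 Lmnb2 was 4.80 and 4.28 against 4.06 and 4.29, with overlapping groups. The call of Lmnb2 was lost without knockdown replicate 2 (adjusted p = 0.104), at equal totals (0.147) and with the GC trend removed (−0.27, 0.369).

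Among inner membrane proteins, Sun2, a SUN-domain protein that links lamins to nesprins, had 201 and 248 in controls and 144 and 130 in knockdowns (1.63-fold lower, log2 −0.70, SE 0.24, adjusted p = 0.0293). Its relative Sun1 had 195 and 153 in controls and 131 and 142 in knockdowns (−0.34, interval −0.86 to 0.19, adjusted p = 0.315). The nesprin genes Syne1 and Syne2, whose products lie in the outer membrane, had −0.75 and −0.33 at 10 and 26 reads in their shallowest libraries and did not pass. Emd, which encodes the LEM-domain protein emerin, had 312 and 325 in controls and 203 and 205 in knockdowns. Its pairs were tight and the difference modest (1.56-fold lower, log2 −0.64, SE 0.22, adjusted p = 0.0305). The calls of Sun2 and Emd were lost at equal totals (adjusted p = 0.286 and 0.346), after removal of the GC trend (0.465 and 0.112), without control replicate 2 (0.134 and 0.0672), without knockdown replicate 1 (0.0741 and 0.131) and without knockdown replicate 2 (0.171 and 0.129). With a library left out the log2 fold changes ran from −0.85 to −0.55 for Sun2 and from −0.67 to −0.61 for Emd. Emd has a predicted gene on its own strand at its 3′ end.

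Lbr, a membrane protein that binds B-type lamins and heterochromatin and also has sterol reductase activity, went the other way. It had 71.8 and 64.9 in controls and 96.9 and 151 in knockdowns (1.76-fold, log2 0.81, SE 0.29, adjusted p = 0.0349). Both knockdowns exceeded both controls, with knockdown 2 well above knockdown 1. Without knockdown replicate 2 it was 0.50 (adjusted p = 0.415), without control replicate 2 the adjusted p was 0.0614, and with the GC trend removed it was 0.37 (0.349). Within libraries, log2 Lmna minus log2 Lbr was 6.94 and 6.64 in controls and 5.12 and 4.53 in knockdowns, so the balance of these mRNAs shifted whichever scaling was used. Lbr has exons of another gene on the opposite strand at its 3′ end.

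Set against the envelope within libraries, where a scaling factor per library largely cancels, each of the other classes separated the groups. The mean log2 value of the pore genes minus that of the envelope genes was −1.18 and −1.08 in controls and −0.36 and −0.23 in knockdowns. For the Ran cycle minus the envelope it was 0.87 and 0.95 in controls and 1.86 and 1.91 in knockdowns. For importins minus the envelope it was −0.09 and −0.34 in controls and 0.45 and 0.70 in knockdowns, which moved the same way. For exportins it went from −2.24 and −1.97 to −1.28 and −1.17. Against the envelope the mRNA export class had the smallest shift of the 5, from 0.34 and 0.52 to 1.05 and 0.98. Pore minus importin values overlapped, at −1.09 and −0.74 in controls and −0.81 and −0.92 in knockdowns. Pore minus mRNA export values did not, at −1.52 and −1.60 against −1.41 and −1.21. So each of the 5 classes shifted against the envelope, by 0.59 to 0.97. All 5 differences subtract the same envelope mean, so its fall is in each of them and they are not separate results. The differences were not recomputed with the GC trend removed, where the envelope median was −0.33 instead of −0.64. These are descriptions of 4 libraries with no test. Scaled to 1000000 normalised counts per library, the envelope genes summed to 4767 and 3748 in controls and 2495 and 2769 in knockdowns, and Lmna made up 78.7% to 87.3% of that sum. Without Lmna the other 8 summed to 605 and 617 in controls and 532 and 582 in knockdowns. Exportins summed to 66.0 and 70.5 in controls and 132 and 156 in knockdowns, and the Ran cycle to 1382 and 1461 in controls and 2139 and 2283 in knockdowns.

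**Figure D3:**
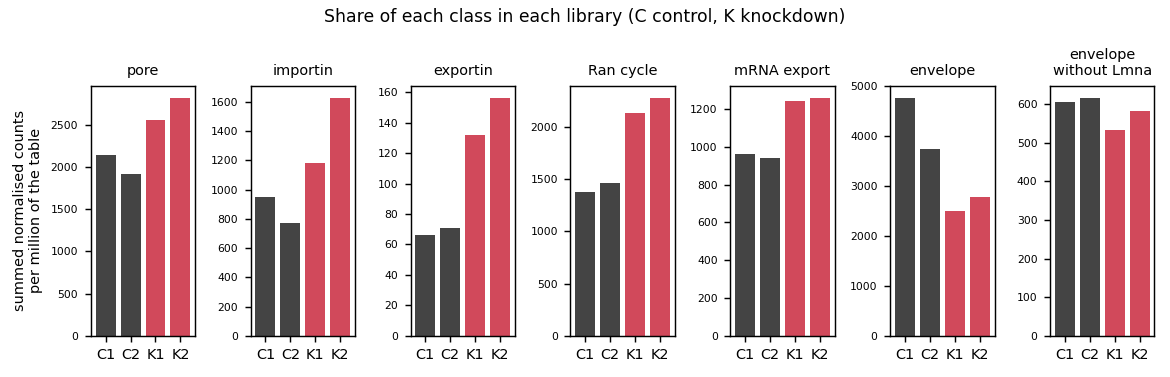
Summed normalised counts of each class after scaling the table to a total of 1000000 (y axis from 0, a separate scale in each panel) in control (C1, C2) and knockdown (K1, K2) libraries. The pore, importin, exportin, Ran cycle and mRNA export sums are higher in both knockdowns, and the envelope sum is lower, mostly through Lmna. At equal totals the median log2 fold change of all genes was itself 0.34. As deposited, the pore sums overlapped (4599 and 4043 in controls, 4442 and 4512 in knockdowns). The mRNA export sums overlapped too (2065 and 1988, then 2157 and 2015). The other directions held, with importins nearly touching (2033 and 1630, then 2054 and 2603).

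Transport and envelope genes with other names came from a list of 60 drawn from general knowledge, with earlier results of these data known. Of these, 39 were in the table and 37 were tested, with 4 rises, 2 falls and a median of 0.15. The rises are 10.8% and the falls 5.41%, both below the 15.9% and 21.6% of all genes tested. Nrm, which encodes the inner membrane protein nurim, had 1013 and 730 in controls and 285 and 226 in knockdowns. It had the lowest log2 fold change of the 37 (3.38-fold, log2 −1.76, adjusted p = 9.86e-06), and it was kept in all 17 other settings. The other fall was Ddx39b, the TREX helicase also known as UAP56, with 1850 and 1646 in controls and 1008 and 1030 in knockdowns (1.71-fold, adjusted p = 0.00639, but 0.102 at equal totals and 0.088 with the GC trend removed). The genes called higher were Nmd3, the export adaptor of the large ribosomal subunit (9.64 to 36.4, 3.53-fold, adjusted p = 0.00771), Ncbp2, the small subunit of the nuclear cap-binding complex (21.0 to 47.8, adjusted p = 0.0258), and Tor1aip1 and Tor1aip2, the membrane activators of the torsin ATPase (1.76-fold and 1.83-fold, adjusted p = 0.0183 and 0.0124). Of the 15 envelope genes tested on this list, 2 rose (13.3%), 1 fell (6.67%) and the median was 0.10. None of the 4 rises passed with the GC trend removed (adjusted p = 0.0828, 0.173, 0.17 and 0.074 in the order named), while 3 other genes of the list gained a call there (Ddx39, Lemd2 and Rcc2, named after their values were seen). Without knockdown replicate 2 only Tor1aip2 was called higher, with Nmd3 at an adjusted p of 0.159. Without knockdown replicate 1 Tor1aip1, Tor1aip2 and Ncbp2 missed (0.051, 0.133 and 0.221), Tor1aip1 also without control replicate 2 (0.0846) and Ncbp2 without control replicate 1 (0.0912).

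Direction was checked under 3 other scalings and with a trend on GC content removed. The median of all genes was 0.05 with TMM scaling, 0.04 under quantile normalisation and 0.34 with library totals made equal, and relative to it the 52 genes had medians of 0.23, 0.28 and 0.23. At equal totals 20 of the 52 rose and 2 fell (Aaas and Lmna), against 28.2% and 13.1% of all genes. The pore, importin, exportin, Ran cycle and mRNA export medians stayed above that of all genes and the envelope median stayed below it in each of these 4 settings. The 15 called genes kept their sign throughout, but under quantile normalisation Ndc1, Nup160, Lbr, Emd, Sun2 and Lmna missed the threshold. Transcript GC content ran with the direction of change: its median was 46.8% in the 10 genes that rose and 53.4% in the 5 that fell, and across the 52 genes Spearman's rho between GC content and log2 fold change was −0.40, beside −0.44 across all genes tested, a description over genes that share the same libraries. With the GC trend removed, 8 rose and 3 fell, against 13.8% and 15.3% of all genes, and the envelope median was −0.33. Rae1 (1.87), Nup98 (1.05), Ranbp1 (0.87), Xpo5 (0.77), Aaas (−0.82), Rcc1 and Lmna kept their calls there, and Nup62, Ipo4, Rangap1 and Seh1l gained one. What part GC content has in the other differences was not tested.

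**Figure D4:**
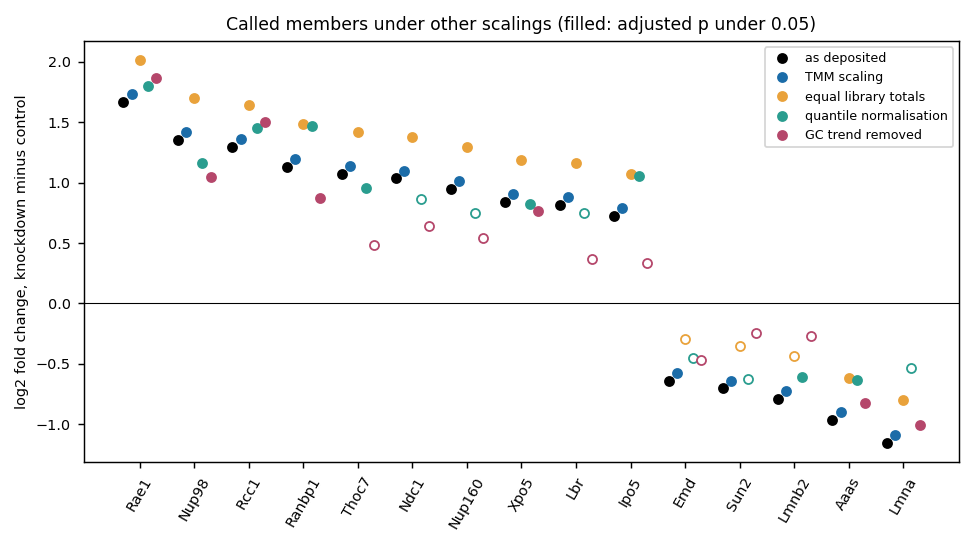
Log2 fold change (y axis) of the 15 called genes with the deposited scaling, 3 other scalings and with the trend on transcript GC content removed; filled points passed an adjusted p of 0.05. No gene crosses 0, and every open point is at equal totals, under quantile normalisation or with the GC trend removed.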

How the data were processed

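Bulk MARS-seq values of 2 control and 2 eIF1A knockdown libraries of mouse embryonic fibroblasts were read from the authors' table. Its values, as deposited, are a signal (normalised counts). STAR, HTSeq, DESeq2, cutadapt 1.8.3, bcl2fastq 2.17.1.14 and mm10 appear, without roles, in the submitters' processing notes. Gene selection, strand setting and any use of molecular identifiers: not given in the sources used here. Per column 100% of values were whole multiples of 1 step within 0.01 read, so reads were recovered, and no gene was at 0. Columns were matched to samples by name.

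The 53 genes were selected by symbol, and the members and lists were chosen with earlier results of these data known. The main test was limma-trend (limma 3.58.1, R 4.3.3) on log2(value + 1), for genes with a mean of at least 5 (4605 tested, 273 not), with no block and Benjamini-Hochberg adjustment over all of them at 0.05. It was tested on simulated data. Pearson's r of log2 values across genes was 0.972 (controls), 0.977 (knockdowns) and 0.893 to 0.920 across the groups. Alternatives were pseudocounts of 0.5 and 5, other filters, TMM scaling, equal totals, quantile normalisation, a replicate block, no trend, edgeR 4.0.16 and DESeq2 1.42.0 on recovered reads with the authors' factors, removal of the GC trend (loess, span 0.5), and each library left out. GC content is that of the longest GENCODE M21 transcript (GRCm38), known for 4873 of 4878 genes. Exons of other genes in the last 1000 bases were found for 2 members on the same strand and 6 on the opposite. Named were all called members and, per class, those of highest mean and largest change, plus up to 8 called genes of the wider list.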

Additional observations from a re-analysis of the deposited data

How the results depend on the processing

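Over 17 alternatives the 15 called members kept their sign, and of 255 such values 61 missed the threshold. Rae1, Ranbp1, Rcc1 and Aaas passed in all 17. At equal library totals 1299 genes of all were higher and 603 lower, members numbered 20 and 2, and the wider list 9 and 1. Medians there were 0.57 (members), 0.72 (pore), 0.70 (importin), 1.08 (exportin), 0.57 (Ran cycle), 0.44 (mRNA export), −0.29 (envelope) and 0.50 (wider list), where the median of all genes was 0.34. TMM scaling gave 0.29 for members, 0.44 for the pore, 0.15 for mRNA export and 0.22 for the wider list. Quantile normalisation gave 0.32 (members), 0.43 (pore), 0.59 (exportin), 0.59 (Ran cycle), 0.34 (mRNA export), −0.53 (envelope) and 0.28 (wider list), with 2 members and 1 gene of the wider list lower. Removal of the GC trend gave 0.0841 (members), 0.23 (pore), 0.23 (exportin), 0.55 (Ran cycle), 0.15 (mRNA export) and −0.33 (envelope), with 3 members lower and, of the wider list, 3 higher and 1 lower. The replicate block with the GC trend removed gave the same medians, 603 genes of all lower, 5 members higher and 2 lower, and 1 of the wider list in each direction. Limma without trend called 655 of all genes, 2 members and 1 of the wider list lower. A mean of at least 20 gave −0.54 for the envelope and 0.10 for the wider list, no filter gave 0.10 for the wider list, and an adjusted p under 0.1 gave 7 of that list higher. The cause of these shifts was not tested.

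Leaving out each library in turn gave 438 to 758 genes of all higher and 715 to 987 lower, 4 to 10 members higher and 2 to 5 lower, and 1 to 5 of the wider list higher and 2 lower. Medians ran from 0.0062 to 0.25 for members, 0.31 to 0.40 for the pore, 0.19 to 0.49 for importins, 0.56 to 0.82 for exportins, 0.19 to 0.52 for the Ran cycle, −0.0334 to 0.0841 for mRNA export, −0.63 to −0.52 for the envelope and 0.10 to 0.18 for the wider list. The lone library left in a group is assumed to vary like the others.

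With the replicate number as a block, 641 genes were higher and 918 lower, and 8 and 4 members, Emd, Lbr and Nup160 missing the threshold (adjusted p = 0.0503, 0.0529 and 0.0701). The labels do not say that a number marks a shared batch, and deviations of same-numbered libraries correlated at −0.13 across genes. A crossed pairing, added after seeing the data, called 891 and 1154 genes and 12 and 5 members. Depth limits the 5 members with under 10 reads in a library (Kpna1, Kpna3, Nup153, Nup37 and Nupl1).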
